A study of Mus musculus with 2 samples.

Results

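Ribosome biogenesis begins in the nucleolus, where RNA polymerase I transcribes the ribosomal DNA into a long precursor RNA. Small nucleolar ribonucleoproteins (snoRNPs) modify and fold this precursor, and assembly factors cut it and build it into the small and large ribosomal subunits. The pathway is a main consumer of energy in growing cells and responds to growth factor signalling and to Myc. Many of its factors were first described in yeast, and several roles given here are known mainly from yeast.

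The genes described here are 42 genes of this pathway, measured in mIMCD3, a line of mouse kidney epithelium that derives from the collecting duct of the inner medulla. They were chosen by function, with the log2 ratios of these same arrays already known from an earlier analysis in which Polr1b, Rrp9, Nop16 and Ncl had been listed with negative values. Their direction is therefore a description and supports nothing. All 42 were found among the spots that were not controls. They had 60 of the 55681 probes on the array and made up 42 of the 19220 genes measured above background. By role they were 7 genes of RNA polymerase I and its initiation, 9 snoRNP proteins, 12 small-subunit factors, 10 large-subunit factors and 4 nucleolar proteins that act at several steps.

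Cells received 10 ng/mL of FGF23, a hormone of the fibroblast growth factor family, for 4 h, and the control cells of the same line received none. The series asks what FGF23 does in renal tubule cells beyond calcium and phosphate handling. RNA of both conditions was hybridised together on 2 two-colour arrays with the dyes swapped: FGF23 RNA carried Cy3 on array 1 and Cy5 on array 2, and unstimulated RNA carried Cy5 on array 1 and Cy3 on array 2. Whether both arrays hold RNA of 1 culture or of 2 is not in the labels, so p-values measure only the spread between these 2 arrays, which may be technical. An established line stands for 1 cell population in culture, and no tissue was measured.

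Between 48.2% and 55.2% of the spots exceeded background clearly, depending on array and dye. No spot was saturated, both arrays shared 1 slide and 1 scan time, and the number of arrays limits the precision. Of the 14 marker genes of collecting duct and ureteric epithelium, 13 were above background, among them Epcam, Cdh1, Krt8, Pax2 and Aqp2; Aqp3 was not. Of 6 markers each, 4 of proximal tubule, 1 of fibroblasts, 3 of macrophages and 2 of endothelium were above background. Ptprc and Adgre1 (macrophage), Cdh5 and Tek (endothelium), Col1a2 and Dcn (fibroblast) and Slc34a1 (proximal tubule) were not. Mean log2 intensity was 11.90 for Itgam and 11.45 for Csf1r (macrophage) and 11.34 for Kdr (endothelium). The other measured markers of these cell types ran from 6.56 to 8.40. Collecting duct markers had 6.84 for Pax2, 7.52 for Aqp2, 10.22 for Epcam and 11.16 for Cdh1, up to 16.60 for Krt18. Krt18, Krt8, Cdh16, Krt19, Pax8 and Hoxb7 were brighter than Itgam. Presence above background thus did not by itself set the cell types apart. No marker passed the test: the largest values of 1 sign were 0.21 for Slc14a2 and 0.15 for Epcam (collecting duct), 0.16 for Csf1r (macrophage) and 0.03 for Kdr (endothelium), as log2 ratios of FGF23 over unstimulated RNA. Klotho (Kl), the co-receptor of FGF23, was not well above background in FGF23 or unstimulated RNA on either array. The FGF receptor genes were measured. Fgfr1 had a log2 ratio of FGF23 over unstimulated RNA of -0.0073 on array 1 and -0.0070 on array 2. Fgfr2 had 0.17 and -0.11, Fgfr3 0.06 and -0.23, and Fgfr4 0.16 and -0.06. These values are of the brightest kept probe of each gene, with which the 3 last receptors had opposite signs on the arrays. Other kept probes differed from them. The other Fgfr2 probe had 0.01 and 0.08, of 1 sign. The other Fgfr1 probes had -0.10 and -0.03, and 0.004 and 0.28. Fgfr3 and Fgfr4 had no other kept probe.

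The array reads each gene through probes of 60 bases. The first 30 bases of the probes that the results turn on are printed here as the array file gives them, with mouse mm9 positions from the same file. They are shown because 1 of these probes begins with a simple repeat, the probe pairs of Polr1b and Pes1 gave different values, and both Ncl probes gave the same direction. Capitals mark the TG repeat.
Polr1b, bright probe, chr2:128951870-128951929, plus strand: gaggtgtcctgtataacacaagtgagggta
Polr1b, dim probe, chr2:128946001-128946060, plus strand: aatctttgctggctgtatagtgctgagtgg
Ubtf, bright probe, chr11:102166995-102167054, minus strand: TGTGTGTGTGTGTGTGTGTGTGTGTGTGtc
Ubtf, second probe, chr11:102167265-102167324, minus strand: aacgagacgtttcctaccgatctcggctgc
Pes1, bright probe, chr11:3879948-3880007, plus strand: aagtatgtatggctcacacttccacattgt
Pes1, second probe, chr11:3873303-3873362, plus strand: attcagttgtgccgtaggctcactgtggag
Ncl, bright probe, chr1:88247953-88248012, minus strand: ttaaaagaatcatttgagggctctgttcgt
Ncl, second probe, chr1:88241516-88241575, minus strand: acttggacattaattaggaagaaactgcat

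As a group the 42 genes lay slightly below 0 with FGF23 on both arrays, and no member passed the test. All ratios below are log2 of FGF23 over unstimulated RNA, on normalised intensities, so a negative value is a lower level with FGF23. The median of the members was -0.11 on array 1 and -0.16 on array 2, and -0.13 for the mean of the arrays. The medians over all 19220 genes were -0.01 on array 1 and 0.02 on array 2. Of the 42 members, 32 were below 0 on both arrays, or 76.2%, against 22.3% of all genes. No member was above 0 on both arrays, against 23.9% of all genes, and 10 had opposite signs. On each array alone 37 of 42 were below 0. The choice of the genes used these ratios, so nothing is read from that excess. With median centring in place of loess, where the medians of all genes were -0.57 on array 1 and 0.56 on array 2, 0 members were below 0 on both arrays, and relative to those medians 22 of 42 were, against 11.0% of all genes.

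By limma with Benjamini-Hochberg adjustment over all genes, 0 of the 42 members passed an adjusted p of 0.05, against 0.0468% of all genes (9 genes, all higher with FGF23). At an unadjusted p under 0.05, 11 members were lower and 0 higher, against 1.31% of all genes lower. The lowest adjusted p of a member was 0.26, for Polr1b. The test has 1 residual degree of freedom. The arrays' ratios correlated with Pearson's r of -0.12 across all genes and -0.40 across the 42 members, Ubtf and Pes1 among them. Genes on an array are read from the same RNA and are not independent replicates. With an intensity trend and robust prior in limma, Polr1b passed with an adjusted p of 0.0056.

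**Figure D1:**
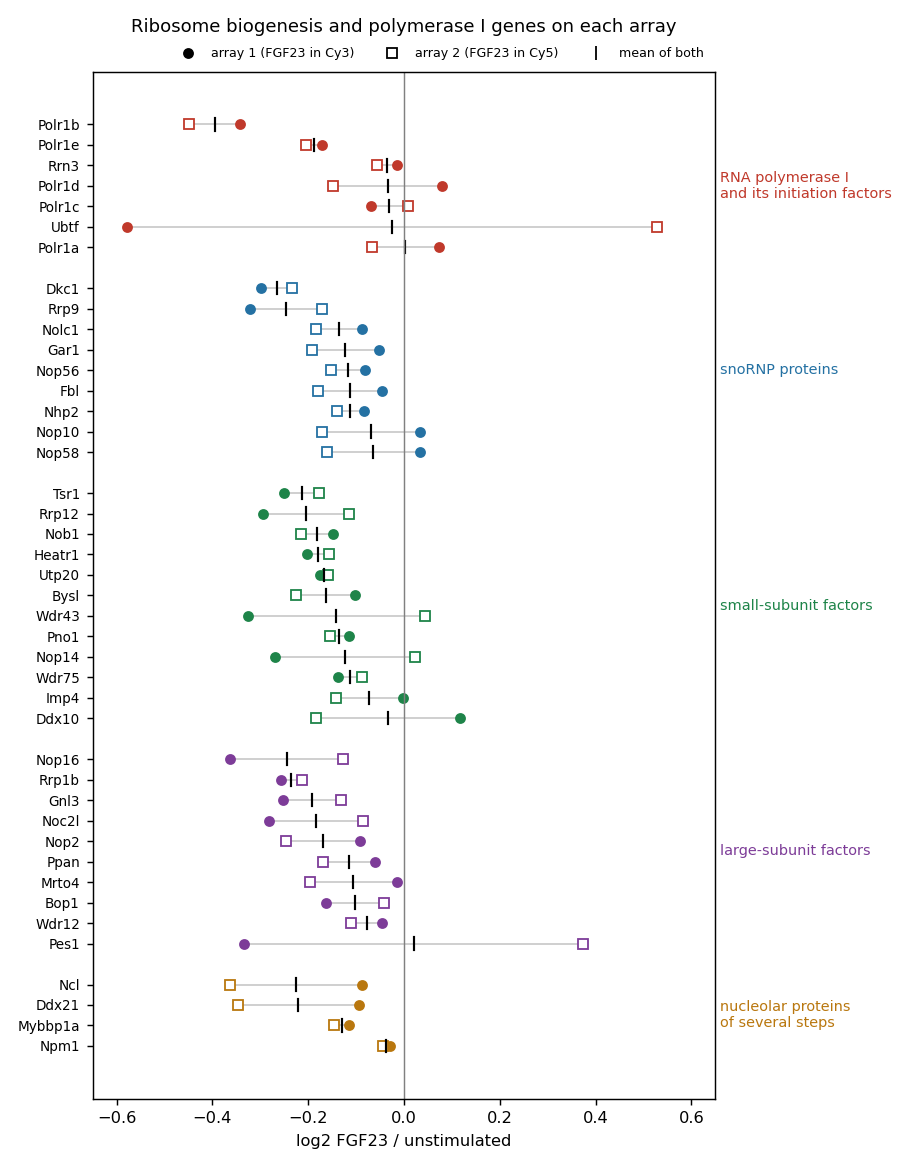
Log2 ratio of FGF23 over unstimulated RNA for each of the 42 genes, grouped by role, with 1 point per array, a tick at their mean and a line at 0. Of these, 32 genes have both points below 0 and none has both above it.

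The members were bright genes. Their mean log2 intensity ran over 8.23 to 16.0, and 38 of 42 lay above the median intensity of the measured genes, 31 of them among the brightest 3 of 10 equal groups of genes. The fold sizes were small: the lowest member, Polr1b, was 1.32-fold lower by its brightest probe. With the mean over probes, which gives a second Polr1b probe near background equal weight, Polr1b had -0.12, and Ncl, at -0.28, was the lowest member. Within each of these 10 intensity groups, the median log2 ratio of all genes stayed between -0.03 and 0.03 on array 1 and array 2. Set against the median of the genes in its own intensity group, 33 of 42 members, or 78.6%, were below on both arrays, against 23.4% of all genes. The median distance of the members from their intensity group was -0.11 on array 1 and -0.16 on array 2, so like brightness left the medians almost where they were.

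**Figure D2:**
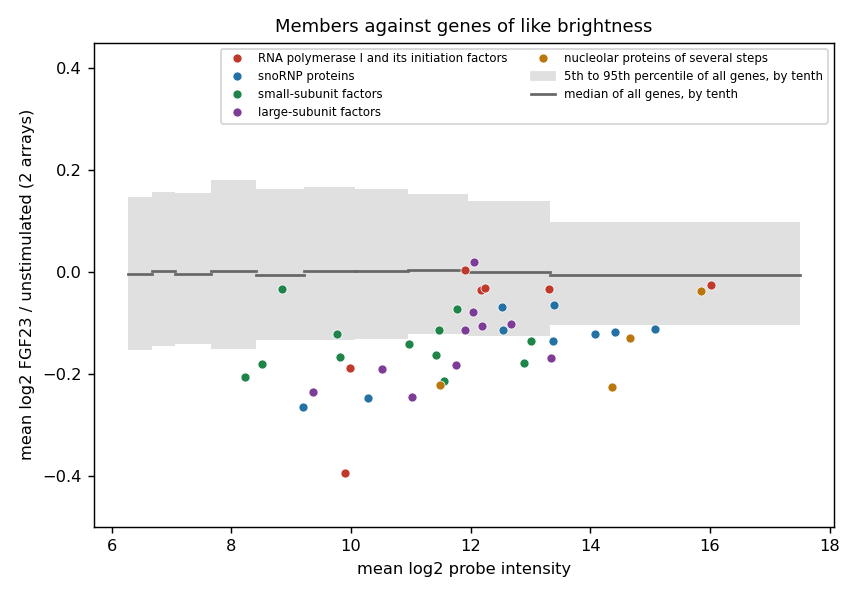
Mean log2 ratio of FGF23 over unstimulated RNA over both arrays against mean log2 intensity for the members, coloured by role, with lines for the median of all genes in each of 10 intensity groups and a shaded band for the range that holds most of them. The members lie at the bright end, between 8.23 and 16.0, and mostly below the line of medians, which stays close to 0.

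Genes of RNA polymerase I and its initiation had the median closest to 0 of the 5 roles. Their median was -0.03 for the mean of the arrays, and 3 of 7 were below 0 on both. The medians were -0.07 on each array with the brightest probes, which include a Ubtf probe with a repeat, described below. Polr1b, the second-largest subunit, had log2 intensities of 10.05 and 9.35 in FGF23 RNA on arrays 1 and 2, against 10.39 and 9.79 in unstimulated RNA. Its log2 ratio was -0.34 on array 1 and -0.45 on array 2, a mean of -0.40 ± 0.075 (SD, n = 2 arrays). Both FGF23 values were thus below the unstimulated value of the same array. The second Polr1b probe had -0.03 and 0.33, a mean of 0.15, on the other side of 0 from the bright probe. Its mean log2 intensity of 6.48 lay in the dimmest of the 10 intensity groups, which spans 6.27 to 6.68. It was well above background in FGF23 RNA on 2 arrays but in unstimulated RNA on 1. The dim probe was thus kept through FGF23 RNA only, and no direction is read from it. Polr1e, a further subunit, had -0.17 and -0.20, with both of its probes below 0 on both arrays.

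The other 5 genes of this role lay close to 0 or had opposite signs. Rrn3, the factor that links polymerase I to its promoter, had -0.01 and -0.06. Polr1c and Polr1d encode subunits that RNA polymerases I and III share. Polr1c had -0.07 and 0.01, as the mean of 10 spots per array whose SD between spots was 0.022 on array 1 and 0.032 on array 2. Polr1d had 0.08 and -0.15. Polr1a, the largest subunit, had 0.07 and -0.07 with its brighter probe, and its other probe had -0.26 and -0.05.

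Ubtf, which binds the ribosomal DNA promoter, had -0.58 on array 1 and 0.53 on array 2. In dye terms both values are the same: Cy5 over Cy3 was 0.58 and 0.53, so the Cy5 channel was brighter on each array whichever RNA it held. This is the probe that begins with a TG repeat, of 14 units in a row. Among all measured probes, 49 held at least 10 TG units in a row, and all 49 were brighter in Cy5 on both arrays. The same holds for 30.9% of all measured probes. Their median log2 Cy5 over Cy3 was 0.63 on array 1 and 0.56 on array 2, at a median log2 intensity of 15.1, against 0.01 on each array for all measured probes. The second Ubtf probe, without the repeat, had 0.16 and -0.14, a mean of 0.009. Neither probe gave a direction for Ubtf. Leaving out probes with such repeats left the polymerase I median of the array means at -0.03. This median could not move, because Ubtf lay above it with either probe. On each array alone it did move, from -0.07 to -0.01 on array 1 and from -0.07 to -0.14 on array 2.

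**Figure D3:**
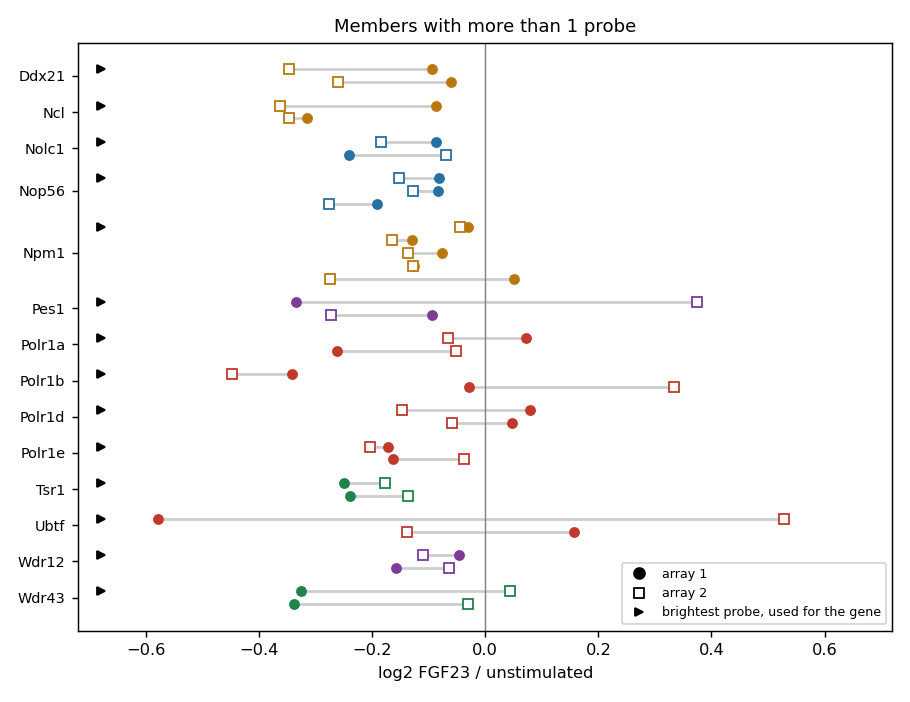
Log2 ratio of FGF23 over unstimulated RNA on each array for every probe of the members that have more than 1, with a triangle at the brightest probe, which stands for the gene. In 10 of the 14 genes every probe has a mean below 0, and Polr1a, Polr1b, Ubtf and Pes1 are the exceptions.

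The 9 snoRNP genes had a median of -0.12, with -0.08 on array 1 and -0.17 on array 2, and 7 of 9 were below 0 on both arrays. Dkc1, the pseudouridine synthase of H/ACA snoRNPs, was the lowest. Its log2 intensities were 9.09 and 9.05 in FGF23 RNA, against 9.39 and 9.28 in unstimulated RNA, and its ratio was -0.27 ± 0.047 (SD, n = 2 arrays). Rrp9, a protein particular to the U3 snoRNP, had -0.32 and -0.17, a mean of -0.25 ± 0.11 (SD, n = 2 arrays).

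The other snoRNP genes had smaller values. In the H/ACA class, Gar1 had -0.05 and -0.19, Nhp2 -0.08 and -0.14, and Nop10 0.03 and -0.17. In the C/D class, the methyltransferase gene Fbl had -0.05 and -0.18, Nop56 -0.08 and -0.15, and Nop58 0.03 and -0.16. Array 2 was the lower one for all 6 of these genes. Nolc1, a chaperone of snoRNPs, had -0.09 and -0.18, and its second probe had -0.24 and -0.07. All 3 Nop56 probes were below 0 on both arrays, of which 2 overlap by 53 bases and share most of their sequence.

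Small-subunit factors had a median of -0.15, with -0.16 on each array, and 9 of 12 were below 0 on both. Tsr1, a late assembly factor of the 40S subunit, had log2 intensities of 11.38 and 11.52 in FGF23 RNA, against 11.63 and 11.69 in unstimulated RNA. Its ratio was -0.21 ± 0.052 (SD, n = 2 arrays), and its other probe, which overlaps the first by 56 bases, had -0.24 and -0.14. Rrp12, which takes part in subunit export, had -0.30 and -0.12. Heatr1, a component of the early transcribing complex (Utp10 in yeast), had -0.20 and -0.16. Utp20, a component of the early precursor, had -0.18 and -0.16.

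The late factors Nob1, the endonuclease that makes the end of 18S RNA, and its partner Pno1 had -0.15 and -0.21, and -0.12 and -0.16. Bysl, an assembly factor, had -0.10 and -0.23. Wdr75, a component of the early complex with Heatr1, had -0.14 and -0.09, and Imp4, a U3-associated protein, had -0.002 and -0.14. The 3 genes with opposite signs were Wdr43, at -0.33 and 0.04, Nop14, a partner of the U3 snoRNP in yeast, at -0.27 and 0.02, and the helicase gene Ddx10, at 0.12 and -0.18. For Wdr43 the second probe had -0.34 and -0.03.

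Large-subunit factors had a median of -0.14, with -0.21 on array 1 and -0.13 on array 2, and 9 of 10 were below 0 on both. Nop16, a factor of the 60S particle in yeast, had -0.36 and -0.13. Rrp1b, related to a yeast 60S factor, had -0.26 and -0.21. Gnl3, nucleostemin, a nucleolar GTPase, had -0.25 and -0.13. Noc2l, related to a yeast factor of 60S transport, had -0.28 and -0.08. Nop2, an RNA methyltransferase, had log2 intensities of 13.28 and 13.25 in FGF23 RNA, against 13.37 and 13.50 in unstimulated RNA, for a ratio of -0.17 ± 0.11 (SD, n = 2 arrays). Ppan, a factor of the early 60S particle, had -0.06 and -0.17, and Mrto4, related to the stalk protein P0, had -0.01 and -0.20.

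Pes1, Bop1 and Wdr12 form 1 complex of the 60S pathway, PeBoW, but their values differed. Bop1 had -0.16 and -0.04, and Wdr12 -0.05 and -0.11. Pes1 had -0.33 and 0.37, a Cy5 over Cy3 of 0.33 and 0.37, so its bright probe leaned to Cy5 on both arrays like the Ubtf probe. No TG or CA repeat of 10 units was found in it. The second Pes1 probe, with a mean log2 intensity of 7.92, had -0.09 and -0.27. The bright probe thus gave no direction for Pes1.

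Of the 4 nucleolar proteins of several steps, all were below 0 on both arrays. Their median was -0.18, with -0.09 on array 1 and -0.25 on array 2. Ncl, nucleolin, had log2 intensities of 14.37 and 14.12 in FGF23 RNA, against 14.46 and 14.49 in unstimulated RNA, and a ratio of -0.23 ± 0.19 (SD, n = 2 arrays). The second Ncl probe had -0.32 and -0.35, so this gene was below 0 on both arrays with each of its probes. Ddx21, a nucleolar helicase, had -0.09 and -0.35, and its second probe -0.06 and -0.26. Mybbp1a, a nucleolar protein that binds Myb, had -0.11 and -0.15. Npm1, nucleophosmin, had -0.03 and -0.04 with its brightest probe and means between -0.15 and -0.04 over 5 probes.

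The roles were compared by their medians on each array, with no test because genes are not replicates. With the brightest probe of each gene, 5 of the 10 pairs of roles kept 1 sign on both arrays. With these probes, polymerase I genes were higher than each of the 4 other roles on both arrays. The differences were 0.01 and 0.10 against snoRNP genes and 0.09 and 0.09 against small-subunit factors. They were 0.14 and 0.06 against large-subunit factors and 0.02 and 0.18 against the several-step proteins. The fifth pair was snoRNP genes over the several-step proteins, at 0.01 and 0.08. Small-subunit and large-subunit factors did not keep an order, at 0.05 and -0.03. The group of 7 polymerase I genes is small. It holds Ubtf, for which neither probe gave a direction, and Polr1b, whose second probe was near background. With the second Ubtf probe in place of the repeat probe, the polymerase I median on array 1 was the Rrn3 value, -0.01. On array 2 it was the Ubtf value, -0.14, below the large-subunit median of -0.13. The order of polymerase I genes over large-subunit factors thus rested on the repeat probe.

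**Figure D4:**
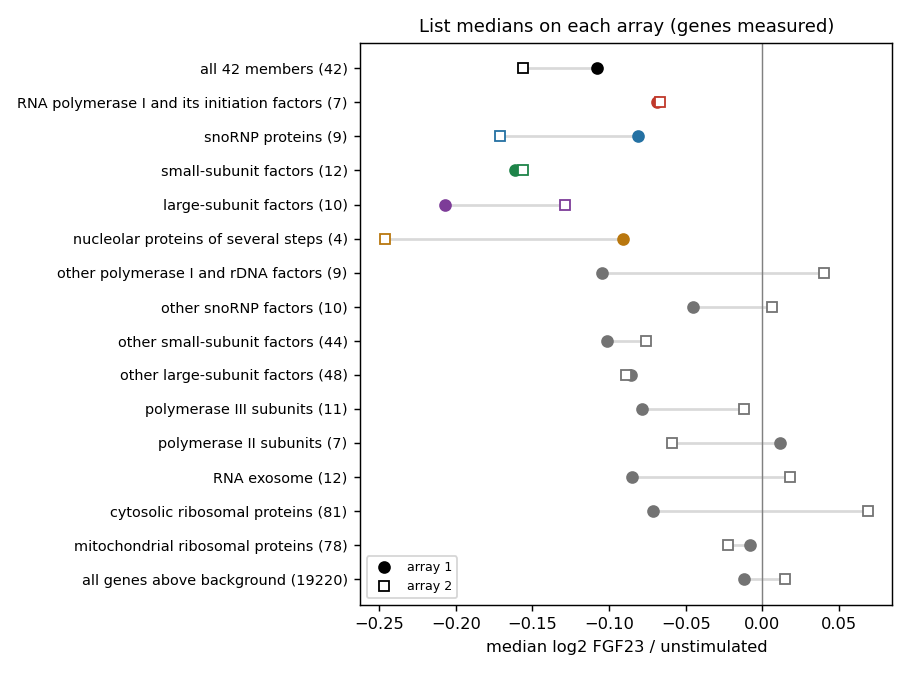
Median log2 ratio of FGF23 over unstimulated RNA on each array for the 5 roles and for the other lists, with the number of measured genes in each. The small-subunit and large-subunit roles lie between -0.21 and -0.13, and cytosolic ribosomal proteins at -0.07 on array 1 and 0.07 on array 2.

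Other genes of the same pathway were listed by function to see how far the direction reaches, again with results of these arrays known. Of 112 such genes 111 were measured. Their median was -0.08, with -0.09 on array 1 and -0.07 on array 2. None of them passed limma's test, and an unadjusted p under 0.05 was found for 3, all lower. Of the 111 genes, 55 were negative on both arrays, or 49.5%, and 9 positive on both, against the 22.3% and 23.9% of all genes. The 42 members, picked with values known, thus had a lower median than the wider list.

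The wider list did not keep the full order of its roles on both arrays. Its snoRNP genes did have higher medians than its small-subunit and large-subunit factors on both arrays. Other small-subunit factors, 44 genes, had a median of -0.08, with -0.10 on array 1 and -0.08 on array 2, of which 23 were negative on both arrays and 2 positive on both. Other large-subunit factors, 48 genes, had -0.08, with -0.09 on each array and 26 below and 3 above. The 10 other snoRNP genes had -0.055, with -0.05 on array 1 and 0.01 on array 2, and 3 below and 3 above. Of 10 other polymerase I genes 9 were measured, at a median of -0.04, with 3 below and 1 above. Their array medians were -0.10 and 0.04, so on array 1 they were as low as the small-subunit factors. Among them Tcof1, the treacle gene that supports ribosomal DNA transcription, had -0.11 ± 0.012 (SD, n = 2 arrays), and the subunit gene Znrd1 had -0.12 ± 0.057 (SD, n = 2 arrays). Utp4 had -0.20 ± 0.056 and Ftsj3, an RNA methyltransferase, -0.21 ± 0.053 (SD, n = 2 arrays each). Rrp7a had -0.19 and Rsl24d1 -0.15, while Snu13 had -0.11 and Ruvbl1 -0.05.

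Genes of neighbouring processes had medians between -0.055 and -0.001, a range that also holds the polymerase I genes. The 7 subunits of RNA polymerase II had a median of -0.03, with 1 below 0 on both arrays, and Polr2i had -0.001 and -0.06. The 11 polymerase III genes had -0.04, with 6 below on both, or 54.5%; Polr3d had -0.14 ± 0.018 and Polr3f 0.12 ± 0.003 (SD, n = 2 arrays each). The 5 shared subunits had -0.01, with Polr2f at -0.09 and Polr2l at -0.05. The 12 RNA exosome genes had -0.055, with 2 below on both, and Exosc7 had -0.06 and Exosc6 -0.13. Cytosolic ribosomal proteins, 81 of 85 measured, had array medians of -0.07 (array 1) and 0.07 (array 2), with 9 below 0 on both, or 11.1%. Of the 81 genes, 62 had opposite signs on the arrays. Their median log2 Cy5 over Cy3 was 0.07, at a median log2 intensity of 16.4. A lean to Cy5 gives opposite signs, so the 11.1% is not directly comparable with other lists. The cytosolic list was filled by gene name. Its lowest gene, Rpl7l1, which is named for the ribosomal protein it resembles, had -0.23 ± 0.046 (SD, n = 2 arrays), and Rps23 had -0.09. Mitochondrial ribosomal proteins, 78 genes, had -0.02, with 21 below on both, or 26.9%. Mrpl12 had -0.16 and Mrpl19 -0.13.

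The Myc network was listed because Myc is a known regulator of ribosome biogenesis genes. Of its 11 genes 9 were measured, with a median of 0.01, with 1 gene negative and 3 positive on both arrays. Mnt, a Myc antagonist, had 0.17 ± 0.005 and Mxd4, a further antagonist, had 0.15 ± 0.063 (SD, n = 2 arrays each). Neither passed the test. Myc itself, named outside the rule for naming genes and after its values were seen, had -0.08 and -0.28, a mean of -0.18 ± 0.14 (SD, n = 2 arrays).

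**Figure D5:**
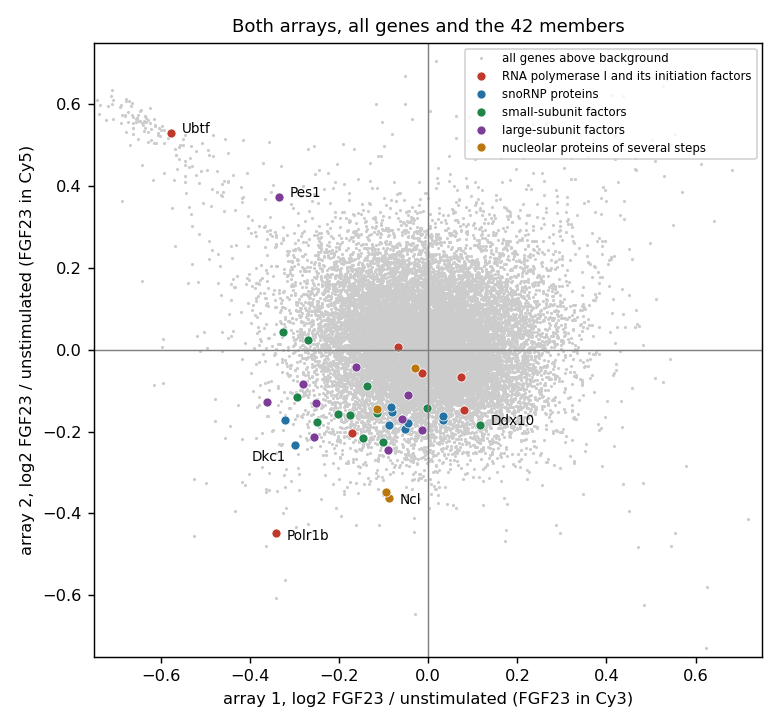
Log2 ratio on array 2 against array 1 for all measured genes, with the members marked by role and the axes limited to 0.75 in both directions, which leaves out 13 of 19220 genes. Of the 42 members, 32 lie in the quadrant below 0 on both arrays, Ubtf and Pes1 fall far from the others, in the upper left, and Polr1b lies lowest on the mean.

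Promoters of the members were read for motifs, as a description. RefSeq windows of GRCm38.p6, from 250 bases before to 50 after each gene's start, were matched for 38 of 42 members, by symbol. Npm1, Fbl, Rrp12 and Bop1 had no entry. Motifs were searched on both strands and 16 were tried, of which 4 are given in full here. CACGTG, the E-box that Myc and Max can bind, was in 9 of 38 members, or 23.7%, against 8.09% of 27025 promoters and 11.53% of 10709 promoters of measured genes. In the wider pathway list it was in 15.9% of 88. CCGGAAG, which is a core of ETS family sites, was in 31.6% of the members, against 50% of the wider list, 9.93% of all and 19.1% of measured genes. GGGCGG was in 68.4%, against 65.9% of measured genes, and TATAAA in 7.89%, against 9.52%. Among motifs not given in full, GGAAGTG was in 39.5% of the members, against 16.3% of measured genes. CACGCG was in 36.8%, against 19.1%, and CACATG in 21.1%, against 10.5%. Others were less frequent in the members, such as CCAAT in 34.2%, against 42.7%, and ATTGGC in 10.5%, against 21.5%. An excess over measured genes was thus not particular to the exact sequence CACGTG. However, CACGCG and CACATG resemble CACGTG, and GGAAGTG shares the bases GGAAG with CCGGAAG, so these are not unrelated motifs. Which proteins bind them was not tested. The motifs were chosen with the ratios known and carry no test.

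The 9 members with CACGTG were Imp4, Mybbp1a, Nop2, Pes1, Pno1, Rrn3, Tsr1, Utp20 and Wdr43. Their median log2 ratio was -0.14, against -0.12 for the members without the motif. The E-box lay 121 bases before the start in Imp4, 60 before in Nop2 and 215 and 48 before in Rrn3, and after the start in the other 6 genes, by 2 bases in Pes1 and up to 40 in Mybbp1a. The 250 bases before the start are printed below for Nop2, which holds CACGTG and CCGGAAG, for Rrn3, which holds CACGTG at both places, and for Polr1b, the lowest member, which holds neither in this window. Rrn3 also counts among the members with CCGGAAG, in the window that runs to 50 bases after the start, but not within the printed bases. Capitals mark CACGTG and, in Nop2, CCGGAAG.
Nop2, chr6:125131633-125131882, plus strand, GRCm38.p6: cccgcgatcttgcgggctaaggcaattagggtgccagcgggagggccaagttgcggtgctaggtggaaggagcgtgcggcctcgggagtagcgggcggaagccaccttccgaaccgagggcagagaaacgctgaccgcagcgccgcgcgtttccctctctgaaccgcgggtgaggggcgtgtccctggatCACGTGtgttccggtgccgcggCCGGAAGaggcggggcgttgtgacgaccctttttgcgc
Rrn3, chr16:13780449-13780698, plus strand, GRCm38.p6: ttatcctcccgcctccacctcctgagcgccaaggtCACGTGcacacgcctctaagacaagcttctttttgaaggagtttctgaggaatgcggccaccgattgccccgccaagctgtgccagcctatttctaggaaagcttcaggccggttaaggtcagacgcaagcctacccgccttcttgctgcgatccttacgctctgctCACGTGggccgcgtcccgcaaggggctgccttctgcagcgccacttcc
Polr1b, chr2:129100746-129100995, plus strand, GRCm38.p6: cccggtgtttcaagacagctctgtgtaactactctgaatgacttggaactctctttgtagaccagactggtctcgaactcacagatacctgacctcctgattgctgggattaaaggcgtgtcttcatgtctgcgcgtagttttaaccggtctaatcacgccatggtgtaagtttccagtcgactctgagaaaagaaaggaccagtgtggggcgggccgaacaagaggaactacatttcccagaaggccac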

How the data were processed

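RNA of mIMCD3 cells with FGF23 and without it was measured on 2 dye-swapped Agilent two-colour arrays of 62976 spots each, 59305 of them not controls. The deposited files hold, per spot and dye, a mean signal and a local background, each a linear intensity written by version 11.5.1.1 of Feature Extraction, per the file headers. The deposited log10 ratio (Cy5 over Cy3), background-subtracted and dye-normalized by that software per the file headers, served only as an alternative. Per the file headers, observed spike-in log ratios had slopes of 0.851 and 0.852 on the expected ones. Probe positions are on mm9, per the file headers; exon and UTR positions were not analysed here.

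Signals were background-corrected with normexp (offset 50) and loess-normalized within each array, giving control spots weight 0 (limma 3.58.1 under R 4.3.3). Each array was turned to FGF23 over unstimulated RNA by the dyes in the labels. Outlier spots, 189 on array 1 and 201 on array 2, were dropped before repeated spots were averaged. A probe was kept if at least 1 condition, the same on each array, was well above background on both arrays, which held for 26941 of 55681. A gene took its brightest kept probe. Of the probes, 28026 had an accession in RefSeq (GRCm38.p6), which supplied the current symbol. Genes were tested with lmFit and eBayes of limma, with Benjamini-Hochberg adjustment over all 19220 genes, a threshold of 0.05, 1 residual degree of freedom and a prior of 11.9. Likeness of brightness was taken by 10 groups of equal size on mean log2 intensity.

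The members and lists were chosen with earlier results of these data known. All 42 members are named. Of each other list, the members past the test are named or, where none passed, the 2 with the largest smaller-of-both-arrays absolute log2 ratio of 1 sign, and so are Kl and the FGF receptor genes. Alternatives changed the background and dye normalization, the normexp offset, the filter on dim probes, the value of a gene and the variance prior, or left out each array.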

Additional observations from a re-analysis of the deposited data

How the results depend on the processing

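Over all genes, 9 were higher and 0 lower by limma. Other settings gave 0 higher with the scanner software's log ratio and with median centring, 5 with a normexp offset of 0, 16 with the mean over probes, 22 without probes holding a TG or CA repeat and 59 with an intensity trend and robust prior. The lower genes numbered 1 with the mean over probes, 1 without the repeat probes and 20 with the trend and robust prior, and the members past the test 1 with that prior. The repeat setting and the counts below 0 were added after the data were seen. Members below 0 on both arrays numbered 0 with median centring, which leaves the intensity-dependent dye difference in the ratios, and 32 or 33 under the other normalization, filter and probe settings. The polymerase I median of -0.034 was -0.035 with the software's ratio, -0.053 with median centring and -0.036 with the mean over probes. The small-subunit median of -0.15 was -0.156 with the software's ratio, -0.164 with median centring, -0.158 with offset 0 and -0.163 with the mean over probes. These role medians stayed below 0, and the cause of the moves was not tested. Leaving out each array in turn gave -0.068 to -0.067 for polymerase I, -0.161 to -0.156 for the small subunit and -0.207 to -0.129 for the large subunit. The closeness of the polymerase I values rests on the Ubtf repeat probe. With the other Ubtf probe, that role had -0.014 on array 1 and -0.139 on array 2. Polr1a changed its side of 0 with the software's ratio, median centring and the mean over probes, Pes1 with the mean over probes (-0.08) and Ubtf without the repeat probes (0.009). The test was paired by design, because each array sets FGF23 against unstimulated RNA within itself. With 2 arrays, precision is limited by their number, and dim probes lie near background.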
